A study of Mus musculus with 768 samples.

Results

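The genes described here are the histone cluster genes, most of them replication-dependent. They were defined as every entry of the expression tables whose symbol began with Hist1h, Hist2h, Hist3h or Hist4h. They made up 75 of 24490 entries and carried 67 distinct symbols, since 8 symbols stood on 2 entries each. By the histone type in the symbol there were 6 entries of the linker histone H1, 22 of H2A, 19 of H2B, 14 of H3 and 14 of H4. The H2B entries include Hist3h2bb-ps, a processed pseudogene. Most of these genes sit in a large cluster on mouse chromosome 13 and in smaller groups elsewhere. The 4 core histones form the protein spool around which DNA is wound, while H1 binds where DNA enters and leaves it. Cells make most of this histone mRNA in S phase, when new DNA has to be packed, and most of it ends in a stem-loop and lacks the poly(A) tail on which SMART-SEQ2 primes. Some of the genes, Hist1h1c among them, are also known to give polyadenylated transcripts.

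NK cells were sorted from MTAP1A tumors, a Tap1-deficient fibrosarcoma line, grown in male mice. The WT library came from C57BL/6 mice and the PD-1-/- library from C57BL/6, PDCD-1(PD-1)-/- mice, whose Pdcd1 carries a deletion spanning exons 3 and 4. Tumors of 3 mice were pooled for each genotype and sorted into 1 plate, so each genotype is 1 library and the plate and the genotype cannot be told apart. No animal-level replicate exists, no test between the libraries was possible, and the exact binomial (Clopper-Pearson) 95% intervals given with shares cover counting error only. Wells with 1000 to 3500 genes above 0 were kept, which left out 24 WT and 18 PD-1-/- wells. No pair of kept wells held identical values.

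The kept wells had a median of 2264.5 genes above 0 in WT and 2262.5 in PD-1-/-, and medians of 305534 and 321321 recovered reads, with a range of 1257 to 545806. Recovered reads are whole reads worked out from the equal steps in which RPKM, a read count scaled by gene length and library depth, rises within a gene. Pdcd1 was above 0 in 9 WT wells (2.50%, interval 1.15 to 4.69) and in 47 PD-1-/- wells (12.8%, 9.59 to 16.7). Its value per gene does not tell the deleted exons from the rest and so cannot test the labels, and the names WT and PD-1-/- stand below for the library labelled that way. All 8 NK-like markers were found in both libraries and every kept well had at least 1 of them, whereas at least 1 of 10 T-like markers was above 0 in 22.2% of WT and 26.8% of PD-1-/- wells. At least 1 of 5 myeloid-like markers was above 0 in 13.1% and 7.10% of wells, and at least 1 of 3 neutrophil-like markers in 1.94% and 1.37%. B-like markers were found in 1.39% and 1.64% of wells and fibrosarcoma-like markers in 5.83% and 3.01%.

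The sequences below are shown because near-identical copies decide what a histone H4 value can mean. Hist1h4m (chr13:21811746-21812147, plus strand) and Hist1h4n (chr13:21831767-21832196, minus strand) are protein-coding genes separated by 19619 bases in the GENCODE vM21 annotation of GRCm38. Over the 402 bases of the Hist1h4m transcript, the Hist1h4n transcript differed at 1 base, G36A, counted from 1 at the 5′ end of the transcript with the base of Hist1h4m first. This base lies 3 bases before the start codon, and the coding bases were all the same. Transcript positions 22 to 51, with that base in capitals, are as follows.
Hist1h4m: acagttttgtcttcGtcatgtctggtcgtg
Hist1h4n: acagttttgtcttcAtcatgtctggtcgtg

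Other H4 genes differed from Hist1h4m at 10 to 42 coding bases. The first 90 coding bases show how closely they resemble each other. Capitals mark bases that differ from Hist1h4m.
Hist1h4m: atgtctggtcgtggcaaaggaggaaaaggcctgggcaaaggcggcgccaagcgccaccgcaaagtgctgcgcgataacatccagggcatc
Hist1h4i: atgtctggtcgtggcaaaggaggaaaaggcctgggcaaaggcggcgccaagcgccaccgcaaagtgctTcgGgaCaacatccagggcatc
Hist1h4d: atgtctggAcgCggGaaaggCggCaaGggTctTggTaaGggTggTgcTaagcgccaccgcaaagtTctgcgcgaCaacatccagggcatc
Hist1h4c: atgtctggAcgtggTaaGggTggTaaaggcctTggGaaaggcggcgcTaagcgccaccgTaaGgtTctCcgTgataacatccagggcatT
Hist4h4: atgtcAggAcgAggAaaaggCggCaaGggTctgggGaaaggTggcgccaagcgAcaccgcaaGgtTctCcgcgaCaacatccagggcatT

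The other core types were similarly close. Coding identity between pairs of genes of the same coding length ran from 77.6% to 100% in H2A (median 96.4%), from 82.9% to 98.95% in H2B (94.8%), from 93.7% to 99.8% in H3 (97.6%) and from 85.3% to 100% in H4 (93.9%). Reads from such genes may be placed on a copy, so the value of a single gene is uncertain wherever few of its stretches are its own. Of all 50-base words of its transcripts, Hist1h4m had 36 (10.2%) found in no transcript of another gene, and Hist1h4n had 55 (14.4%). Hist1h1e had 67.996% of its words to itself, Hist1h4d 89.8% and Hist1h1c 91.5%.

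Of the 75 entries, 56 were above 0 in at least 3 kept wells, 2 in 1 or 2 wells, and 17 in none. Of these 17, 14 stood on repeated symbols, such as Hist2h2aa1, Hist2h3c1, Hist1h2ao and Hist1h2ap, whose copies hold few or no words of their own. The other 3 were Hist1h1t, Hist1h2ba and Hist1h3b, which have a single entry each. Hist1h1t and Hist1h2ba are known as testis histones, and 100% and 61.8% of their 50-base words were their own. A count of 0, read as fewer than 3 wells of the total, allows a share of up to 0.820% of PD-1-/- wells and 0.833% of WT wells, and the two-sided exact interval reaches 1.003% and 1.02%.

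The length over which reads were counted could be worked out from the size of the RPKM step for 49 entries, and in 35 of these it equalled the span of the gene in RefSeq (GRCm38.p6) to the base. Of Hist1h4m, only 39 of 405 bases were counted. Of the Hist1h4n entry that had reads, the second of its 2 entries, all but 40 of 406 bases were counted, and this length and the 39 bases add up to the 405 of the Hist1h4m span. A similarly small part of its span was counted only for Hist1h2bp, at 1231 of 14079 bases. The cases are unlike, since the longest GENCODE transcript of Hist1h2bp has 621 bases, fewer than were counted, whereas that of Hist1h4m has 402. The tables give no coordinates, so the locus that each entry stands for cannot be read from them. With 39 bases, 1 read in a well was worth at least 61.4 RPKM for Hist1h4m, whereas 1 read of Hist1h4d, counted over all but 34 of 402 bases, was worth as little as 7.17 RPKM.

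**Figure D1:**
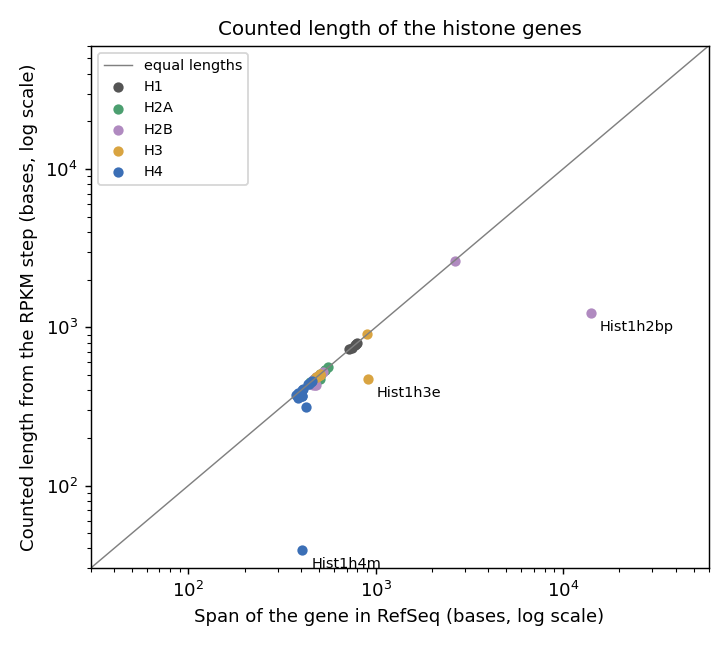
Counted length against the span of the gene in RefSeq, both in bases on log axes, for the 49 histone entries with a read step; each point is 1 entry, colored by histone type, and the line marks equal lengths. Hist1h4m, at 39 of 405 bases, and Hist1h2bp, at 1231 of 14079, lie far below the line. The span of Hist1h2bp is far longer than its longest GENCODE transcript, at 621 bases.

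The NK cells carried histone transcripts in nearly every well. At least 1 of the genes was above 0 in 97.5% of WT wells (interval 95.3 to 98.9) and in 94.8% of PD-1-/- wells (92.01 to 96.8). A well held a median of 5 histone genes above 0 in WT (range 0 to 24) and of 4 in PD-1-/- (range 0 to 32). The summed RPKM of all histone genes had a mean of 584 ± 566 (SD over wells, n = 360) in WT and of 387 ± 440.9 in PD-1-/-, and medians of 399 and 244.4. The well ranges of 0 to 3791 and 0 to 3341 overlapped almost entirely. Without Hist1h4m the means were 485 and 387, a log2 ratio of -0.33 in place of -0.59 (PD-1-/- over WT, on the scale of mean RPKM plus a pseudocount of 1).

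By histone type, the wells were richest in H1 and H4. H1 took 36.7% of the summed level in WT and 36.1% in PD-1-/-, H4 took 39.2% and 27.7%, and H3 took 3.71% and 4.70%. These sums include Hist1h4m, and the other 74 entries held 83.04% of the WT sum and 99.8% of the PD-1-/- sum. The WT percentages therefore depend on Hist1h4m. H4 without it took 22.2% and 27.6% of the same full sums. The H1 means below stand against sums without Hist1h4m of 485 and 387 RPKM. H1 was above 0 in 83.3% of WT wells (79.1 to 87.03) and in 70.5% of PD-1-/- wells (65.5 to 75.1), with mean sums of 214.2 and 140 RPKM. H4 was above 0 in 81.1% (76.7 to 85.02) and 71.6% (66.7 to 76.2) of wells, with mean sums of 228.9 and 107.4 RPKM. Without Hist1h4m the H4 means were 130 and 106.8 RPKM and the WT share was 76.7% (71.9 to 80.9), whose interval overlapped that of PD-1-/-. H2A and H2B were nearly equal in level between the libraries, at 63.1 and 65.2 RPKM for H2A and 56.4 and 56.6 RPKM for H2B, with log2 ratios of 0.05 and 0.00. H3 was above 0 in 33.6% (28.7 to 38.7) and 28.96% (24.4 to 33.9) of wells, with means of 21.7 and 18.2 RPKM.

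Among single genes, the linker histone genes Hist1h1e and Hist1h1c and the H4 gene Hist1h4m were found in fewer wells of PD-1-/-, and Hist1h4n in more. The share intervals of the libraries did not overlap for Hist1h4m, Hist1h1e and Hist1h1c, which were lower in PD-1-/- (3 of 56 histone genes above 0 in at least 3 kept wells, against 0.501% of all 14171 such entries), and for Hist1h4n, which was higher (1 of 56, against 0.494% of all entries). By the size of the ratio, 40 histone genes reached a mean of 1 RPKM in WT or PD-1-/-. Of these, 3 were lower by at least 2-fold in PD-1-/-, Hist4h4, Hist1h2ak and Hist1h4m (7.50%, against 7.34% of 12030 entries), and 3 were higher, Hist1h4n, Hist1h2bj and Hist1h1a (7.50%, against 4.71%). These shares of 40 genes were close to those of all entries, and the median log2 ratio was -0.14 over the 40 histone genes and -0.03 over all entries tested.

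**Figure D2:**
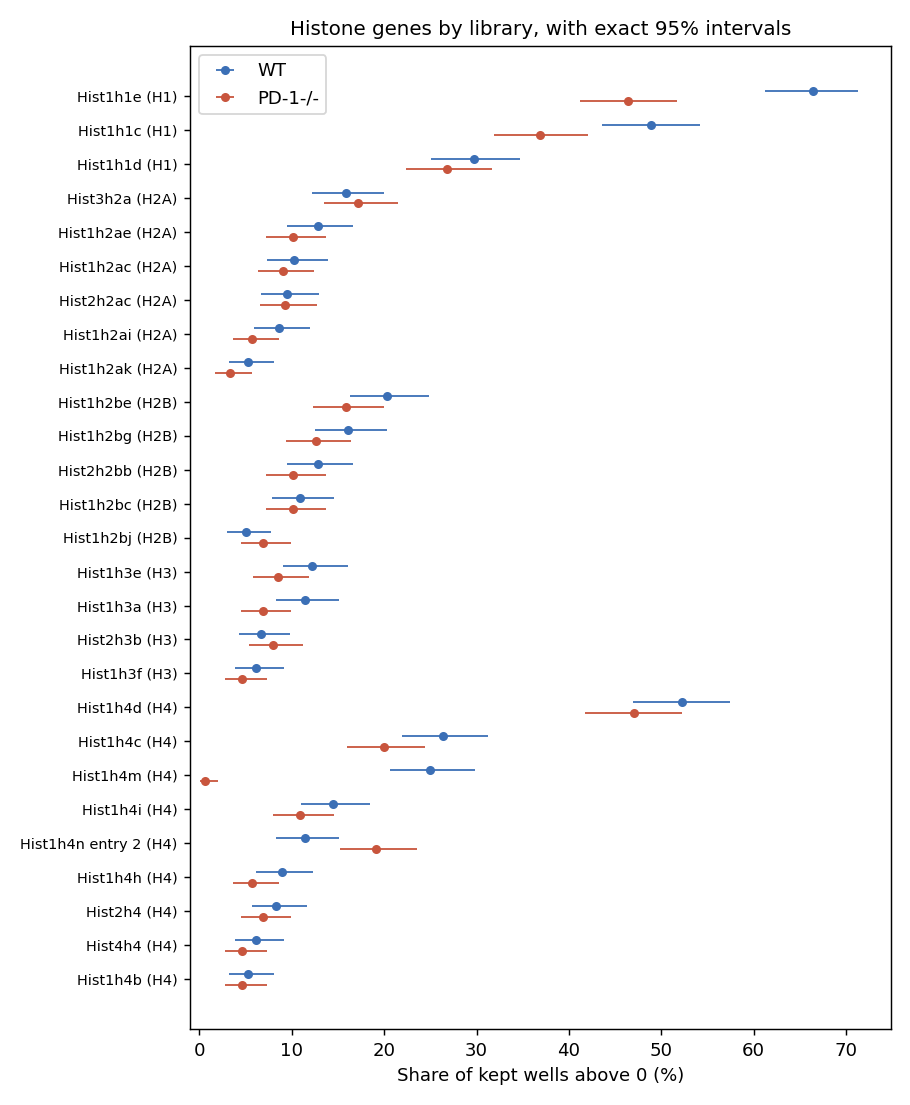
Share of kept wells with each histone gene above 0, in percent, for the genes above 0 in at least 5% of wells of a library, grouped by histone type; points are WT and PD-1-/- values, and bars are exact 95% intervals. The bars are apart for Hist1h1e, Hist1h1c, Hist1h4m and the second entry of Hist1h4n.

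Hist1h4m, an H4 gene, had the lowest ratio of PD-1-/- over WT among the entries tested. It was above 0 in 90 of 360 WT wells (25%, interval 20.6 to 29.8) and in 2 PD-1-/- wells (0.546%, 0.0662 to 1.96). In the WT wells that had it, RPKM ran from 61.4 to 1775 with a median of 306.6. Both PD-1-/- wells lay inside that range, the lower of them at 92.02 RPKM. Over all kept wells the means were 99.1 RPKM in WT and 0.623 in PD-1-/-, a log2 ratio of -5.95, the lowest of the 12030 entries tested. The next lowest was Mir130a at -4.85. A pseudocount of 10 in place of 1 gave -3.36 for Hist1h4m and a pseudocount of 0.1 gave -7.10, so the size of its ratio depends on this setting. The rank also rests on RPKM over 39 counted bases, where a mean of 1.075 recovered reads per WT well became 99.1 RPKM. It was not recomputed over the whole span of the gene.

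Counted in reads rather than RPKM, Hist1h4m is a small signal. WT wells with the gene had 1 to 13 recovered reads with a median of 4, and the library held 387 in all. The PD-1-/- library held 3, 2 of them in well H11 and 1 in well L13. The WT wells with Hist1h4m were spread over the plate, with 2 to 9 of them in each of the 16 rows. In rows A to H 24.7% of WT wells (18.6 to 31.7) had it and in rows I to P 25.3% (19.1 to 32.2), against 1 PD-1-/- well in each of these sets of rows. WT wells with and without the gene had similar depth, with medians of 305534 and 305870 recovered reads, and 2159.5 and 2289 genes above 0. They held medians of 6 and 4 other histone genes.

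Hist1h4n ran the other way. It was above 0 in 41 WT wells (11.4%, interval 8.30 to 15.1) and 70 PD-1-/- wells (19.1%, 15.2 to 23.5). Mean levels were 3.39 and 7.79 RPKM, for which the log2 ratio was 1.001. Within rows A to H, Hist1h4n was above 0 in 11.8% (7.45 to 17.5) and 16.8% of wells (11.7 to 23.1) and in rows I to P in 10.99% (6.84 to 16.5) and 21.4% (15.7 to 28.1), so the intervals overlapped within either set of rows. WT wells with the gene had a median of 3 recovered reads, as did PD-1-/- wells. The first Hist1h4n entry was at 0 in every kept well. Hist1h4m and Hist1h4n were found together in 16 WT wells and in no PD-1-/- well, and at least 1 of them was above 0 in 31.9% of WT wells (27.2 to 37.03) and 72 PD-1-/- wells (19.7%, 15.7 to 24.1). Per 1000000 recovered reads, Hist1h4m had 3.76 in WT and 0.0258 in PD-1-/-, Hist1h4n had 1.35 and 2.54, and both together had 5.11 and 2.56. In WT most of the reads of the pair thus lay in the 39 counted bases of Hist1h4m, and in PD-1-/- nearly all lay in Hist1h4n. What placed reads on one entry or the other was not tested, and the values of both genes are uncertain for this reason.

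**Figure D3:**
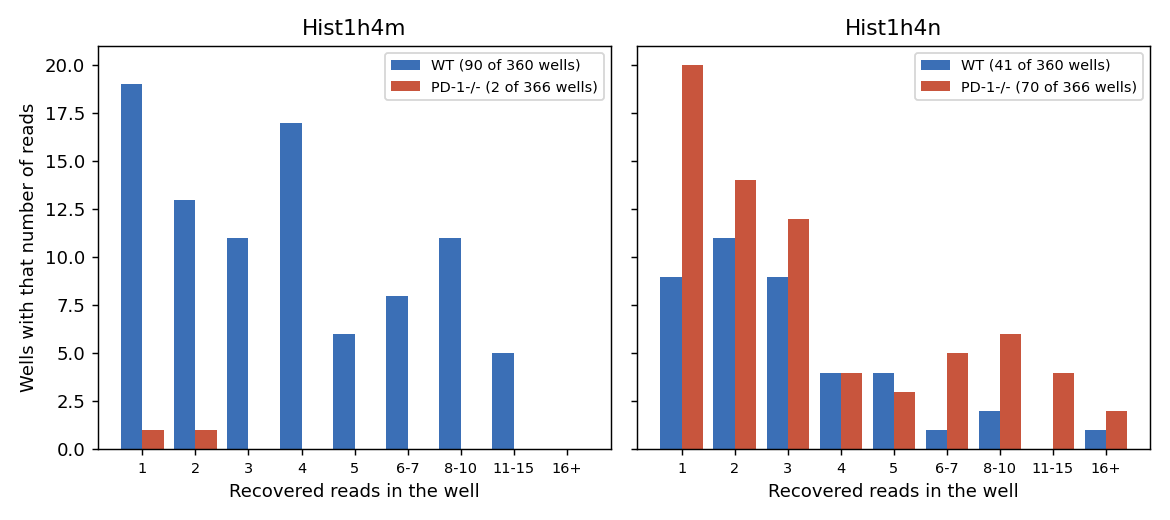
Number of wells (vertical axis) by recovered reads in the well (horizontal axis), for Hist1h4m on the left and the second entry of Hist1h4n on the right, WT in blue and PD-1-/- in red, wells at 0 left out. Hist1h4m has 90 WT and 2 PD-1-/- wells, and Hist1h4n has 41 and 70.

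No other gene followed Hist1h4m closely. Over the 360 WT wells the highest Spearman correlation of its RPKM with any of 8623 entries above 0 in at least 5% of wells was 0.19, with Rps14, a ribosomal protein gene. Among the histone genes it was 0.17 with Hist4h4. These wells share 1 library and a range of depths.

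Hist1h1e, a linker histone, was the histone gene found in most wells of WT, while in PD-1-/- Hist1h4d was found about as often. It was above 0 in 66.4% of WT wells (interval 61.3 to 71.3) and 46.4% of PD-1-/- wells (41.2 to 51.7). Mean levels were 96.7 ± 135.7 RPKM (SD over wells) and 49.7 ± 94.97 RPKM, a log2 ratio of -0.95. Where it was above 0, the WT wells ran from 3.27 to 1208 RPKM with a median of 99.9, and the PD-1-/- wells from 2.42 to 682 with a median of 69.6. The ranges overlapped, and the gap lay both in how many wells had the gene and in the level within them. In rows A to H 68.5% of WT and 41.8% of PD-1-/- wells had it, and in rows I to P 64.3% and 51.1%, where the intervals (56.9 to 71.2 and 43.6 to 58.6) overlapped.

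Hist1h1c, another linker histone, was above 0 in 48.9% of WT wells (interval 43.6 to 54.2) and 36.9% of PD-1-/- wells (31.9 to 42.1). Its means were 64.9 and 43.7 RPKM, a log2 ratio of -0.56, while the wells that had it were close in level, with medians of 86.2 and 83.8 RPKM. Its highest wells reached 1385 RPKM in WT and 662 in PD-1-/-. In rows A to H it was above 0 in 47.2% (39.7 to 54.8) and 33.7% (26.9 to 41.02) of wells and in rows I to P in 50.5% (43.1 to 58.03) and 40.1% (32.9 to 47.6), so the intervals overlapped within either set of rows. Hist1h1d, the linker histone next in level, was in 29.7% and 26.8% of wells, had means of 39.3 and 36.2 RPKM, and was not apart between libraries.

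Apart from Hist1h4m and Hist1h4n, the core histone genes named here had overlapping share intervals in the libraries. Hist1h4d, the H4 gene found most often, was above 0 in 52.2% of WT wells (interval 46.9 to 57.5) and 46.99% of PD-1-/- wells (41.8 to 52.3). Its means were 54.8 and 49.04 RPKM, a log2 ratio of -0.16. It differs from Hist1h4m at 20 coding bases, most of them among those printed above. Hist1h4c, another H4 gene, was in 26.4% (21.9 to 31.3) and 19.9% of wells (15.97 to 24.4), and its mean level was 37.4 RPKM in WT against 19.8 RPKM in PD-1-/- (log2 ratio -0.89). Hist3h2a, the H2A gene with the highest level, was above 0 in 15.8% and 17.2% of wells, with means of 28.6 and 36.02 RPKM. Hist1h2ac, the H2A gene next in level, was in 10.3% and 9.02% of wells, with means of 7.66 and 8.31 RPKM. The H2B genes with the highest level were Hist1h2bc, at means of 11.9 and 13.98 RPKM in 10.8% and 10.1% of wells, and Hist1h2bg, at 10.4 and 7.45 RPKM in 16.1% and 12.6%. The H3 genes with the highest level were Hist1h3a, at 7.67 and 4.96 RPKM in 11.4% and 6.83% of wells, and Hist1h3e, at 6.11 and 4.83 RPKM in 12.2% and 8.47%. For Hist1h3a the log2 ratio was -0.54, and for Hist1h2bg -0.44. Overlapping intervals do not show that the levels were equal.

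The other genes past 2-fold were low and found in few wells. Hist4h4 had means of 6.76 and 2.61 RPKM (22 WT and 17 PD-1-/- wells), Hist1h2ak 4.30 and 1.58 (19 and 12 wells), Hist1h2bj 2.29 and 5.70 (18 and 25 wells), and Hist1h1a 0.678 and 3.47 (7 and 7 wells). With so few wells, a handful of them sets each mean. Hist1h4m was the only histone gene past 2-fold among those that reached a mean of 10 RPKM.

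The summed level of the histone genes, but not their number, was lower in wells with more genes, with the strongest rank correlation for H1. In WT, wells with 1000 to 1499 genes (n = 22) had a mean summed level of 1107 RPKM, followed by 827, 533 and 401 RPKM in the next bins of 500 genes and 332.3 RPKM in wells with 3000 to 3500 genes (n = 31). In PD-1-/- the means were 918, 507, 299.6, 247.5 and 324.4 RPKM, and the last bin (n = 38) includes well L5, described below. Over wells, the Spearman correlation of the summed level with the number of genes was -0.38 in WT and -0.29 in PD-1-/-, and without Hist1h4m -0.36 and -0.29. By type it was -0.37 for H1, -0.16 for H4, -0.06 for H3, 0.02 for H2B and 0.04 for H2A in WT. In PD-1-/- it was -0.16 for H1, -0.10 for H4, -0.08 for H2A, -0.03 for H3 and -0.01 for H2B. That of the number of histone genes above 0 was 0.03 in both libraries. Bin means did not single out H1. In WT, H4 (with Hist1h4m) went from 481 RPKM in the lowest bin to 113.7 in the highest, and H1 from 359.6 to 98.4. In PD-1-/-, H2A went from 243.02 to 50.5 RPKM, H1 from 325.3 to 97.7 and H4 from 170.9 to 90.98. RPKM is scaled by library depth, so its sum over all genes had little room to move and is no control. Its medians were 557006 and 559701 in the lowest and highest WT bins. As a comparison, the replication-independent variants (H3f3b, H2afz and 9 others, most of which are also made outside S phase and polyadenylated) had correlations of -0.14 and -0.07. These are descriptions over wells of 1 library each, and depth moves with them in part, since the lowest WT bin had a median of 185068 recovered reads against 318045 in the highest.

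Gene by gene there was no common fall, although negative correlations were more frequent than over all entries. Of the entries above 0 in at least 5% of WT wells, 6.75% had a negative correlation with the number of genes per well, and 11 of the 27 histone genes among them did. In PD-1-/- it was 6.12% of entries and 11 of 22 histone genes. The median correlation was 0.11 over all such entries and 0.02 over the histone genes in WT, and 0.12 and 0.00 in PD-1-/-. The mean summed level was higher in WT than in PD-1-/- in each of the 5 bins, from 827 against 507 RPKM at 1500 to 1999 genes to 332.3 against 324.4 RPKM at 3000 or more genes. Without Hist1h4m it was higher in WT in 3 of the 5 bins, from 1500 to 2999 genes.

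**Figure D4:**
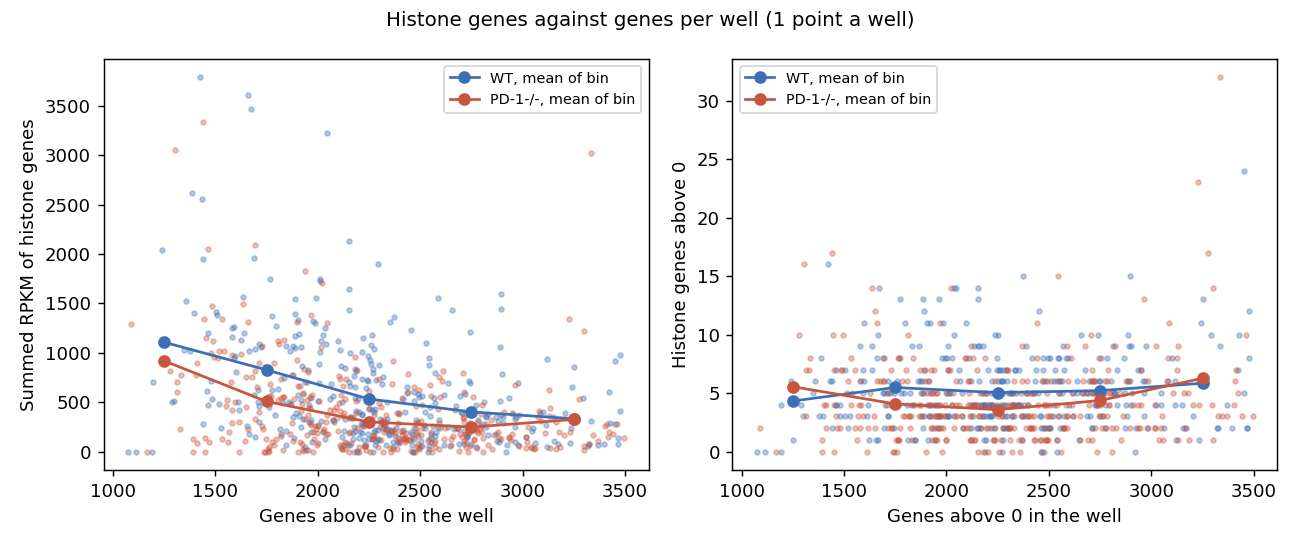
Summed RPKM of the histone genes (left) and number of histone genes above 0 (right) against the number of genes above 0 in the well; each small point is 1 well, large points joined by lines are the means of bins of 500 genes, WT in blue and PD-1-/- in red. The summed level falls from 1107 to 332.3 RPKM in WT and from 918 to 324.4 RPKM in PD-1-/-, while the mean number of histone genes stays between 3.58 and 6.26.

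Histone genes were only loosely found together. Among the 17 genes above 0 in at least 10% of WT wells, the pairwise Spearman correlations had a median of 0.05 and ranged from -0.10 to 0.25. Among 13 such genes in PD-1-/-, 78 pairs had a median of 0.06 and a range of -0.06 to 0.20. Hist1h2bg with Hist1h2ae had the highest value in either library, 0.25 in WT and 0.20 in PD-1-/-.

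Whether histone genes followed cell division was asked with Ccna2, the cyclin of S phase and G2, and Mki67, a marker of dividing cells. Ccna2 was above 0 in 21 WT wells (5.83%, interval 3.65 to 8.78) and 38 PD-1-/- wells (10.4%, 7.45 to 13.97), and Mki67 in 17 (4.72%, 2.77 to 7.45) and 31 wells (8.47%, 5.83 to 11.8). WT wells with Ccna2 had a mean summed level of 557 RPKM and those without 586 RPKM, a log2 ratio of -0.07. PD-1-/- wells with Ccna2 had 440 RPKM and those without 381.3, a log2 ratio of 0.21 that turned to -0.48 in rows A to H alone. With Mki67 the log2 ratio was -0.76 in WT (351.1 against 596 RPKM) and 0.46 in PD-1-/- (516 against 375.5 RPKM). Medians of histone genes above 0 were 4 with and 5 without Ccna2 in WT, and 4 and 4 in PD-1-/-. Spearman correlations of the summed level with Ccna2 were 0.01 in WT and 0.04 in PD-1-/-, and with Mki67 -0.12 and 0.02.

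Gene by gene, the libraries gave different counts. In WT, 2 of 37 histone genes were higher by 2-fold in wells with Ccna2 (5.41%, against 11.7% of all entries) and 15 were lower (40.5%, against 33.6%). In PD-1-/-, 12 of 45 were higher (26.7%, against 11.6%) and 4 lower (8.89%, against 18.7%). With Mki67, 5 of 37 were higher in WT (13.5%, against 24.7%) and 13 lower (35.1%, against 26.6%), while in PD-1-/- 15 of 46 were higher (32.6%, against 17.5%) and 4 lower (8.70%, against 18.9%). The difference between the libraries was not tested. Some of the 12 genes reached 1 RPKM only in the wells with Ccna2 and so could be called only as higher. Examples were Hist1h2ah at 2.20 against 0.0123 RPKM and Hist1h2ab at 3.52 against 0.0606 RPKM. Hist1h4m was in 1 well of either set, so these counts support nothing on their own. Without the PD-1-/- wells L5 and K10, a choice made after seeing the data, the count higher with Ccna2 was 5 and the count lower 8, and the log2 ratio of the summed level was -0.15.

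By share of wells, the intervals of wells with and without Ccna2 were apart for no histone gene in WT (0 of 56, against 0.395% of 14170 entries higher and 0.0988% lower). In PD-1-/- they were apart for 2, both higher with Ccna2 (3.57% of 56, against 1.38% of entries), and for 0 that were lower (against 0.0423%). These were Hist1h1e, in 26 of 38 wells with Ccna2 (68.4%, 51.3 to 82.5) and 43.9% of the others (38.5 to 49.5), and Hist1h4j. In WT Hist1h1e was in 66.7% and 66.4%. The 5 genes ranked by the smaller of their gains in the libraries, and thus chosen for the gain, showed gains of 3.08 to 5.82 percentage points in the library with the smaller gain. Hist1h1c was above 0 in 13 of 21 WT wells with Ccna2 (61.9%, 38.4 to 81.9) and 48.1% of the others (42.7 to 53.5), and in 16 of 38 PD-1-/- wells with Ccna2 (42.1%, 26.3 to 59.2) and 36.3% of the others (31.1 to 41.7). Hist1h4j was in 1 of 21 and 6 of 38 wells with Ccna2, the latter 15.8% (6.02 to 31.3) against 2.13% (0.862 to 4.35) of the other PD-1-/- wells, where the intervals were apart. Hist1h3h was in 1 and 4 of the wells with Ccna2, Hist1h3a in 3 and 4, and Hist1h2aa, known as a testis histone, in 1 and 2, and their intervals overlapped those of the wells without.

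Some PD-1-/- wells with a high level of Ccna2 held many histone genes, while its presence alone set wells apart little. Most wells above 0 had few reads of it. The 20 WT wells between 0 and 10 RPKM had a median of 2 recovered reads of Ccna2 and the 30 such PD-1-/- wells a median of 1. At 10 RPKM or more there were 1 WT well and 8 PD-1-/- wells. The WT well, D18, had 4 histone genes and 352.9 RPKM. The PD-1-/- wells had 0, 3, 3, 8, 14, 15, 23 and 32 histone genes, a median of 11 against 4 in wells without Ccna2 and 3.5 in wells under 10 RPKM. Their mean summed level was 975 RPKM against 381.3 and 297.1 RPKM, a log2 ratio of 1.38 over all other PD-1-/- wells. The medians were 614 against 233.7 and 242.1 RPKM, and well L5, at 3026 RPKM, weighed heavily in the mean. The well with 0 histone genes, B12, held 3990 recovered reads in all, so that its Ccna2 value of 94.03 RPKM was 1 read. These 8 wells had a median of 2651 genes above 0, against 2209.5 in wells without Ccna2.

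Core and linker histone genes were found often in those 8 PD-1-/- wells. Hist3h2a was above 0 in 6 of 8 (75%, interval 34.9 to 96.8) and 15.9% of the other PD-1-/- wells (12.3 to 20.1). Hist1h2ae, an H2A gene, was in 5 of 8 (62.5%, 24.5 to 91.5) and 8.94% (6.19 to 12.4), and Hist1h1b, a linker histone, in 4 of 8 (50%, 15.7 to 84.3) and 3.35% (1.74 to 5.78). In all, the intervals were apart for 10 of 56 histone genes that were higher in these wells (17.9%, against 1.83% of 14170 entries) and for 0 that were lower (against 0.0282%). The other 7 were Hist1h4j, Hist1h3i, Hist1h2bb, Hist1h2ab, Hist1h2ah, Hist1h2bl and Hist1h2bk, in 2 or 3 of the 8 wells each. For Hist1h2ab, Hist1h2ah, Hist1h2bl and Hist1h2bk these were the same 2 wells, L5 and K10. Hist1h2ah was in only 3 kept wells in all, so it passed the limit of 3 wells through them. The count of 10 was not repeated without L5 and K10. The 10 RPKM limit on Ccna2 was used with the values known. Hist1h4c was in 1 of 8 wells and 20.1% of the others, and Hist1h2ai and Hist1h4b were in 0 of 8 wells and in 5.87% and 4.75% of the others. Hist1h1e was in 6 of 8 and 45.8% and Hist1h4d in 6 of 8 and 46.4%, with overlapping intervals.

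**Figure D5:**
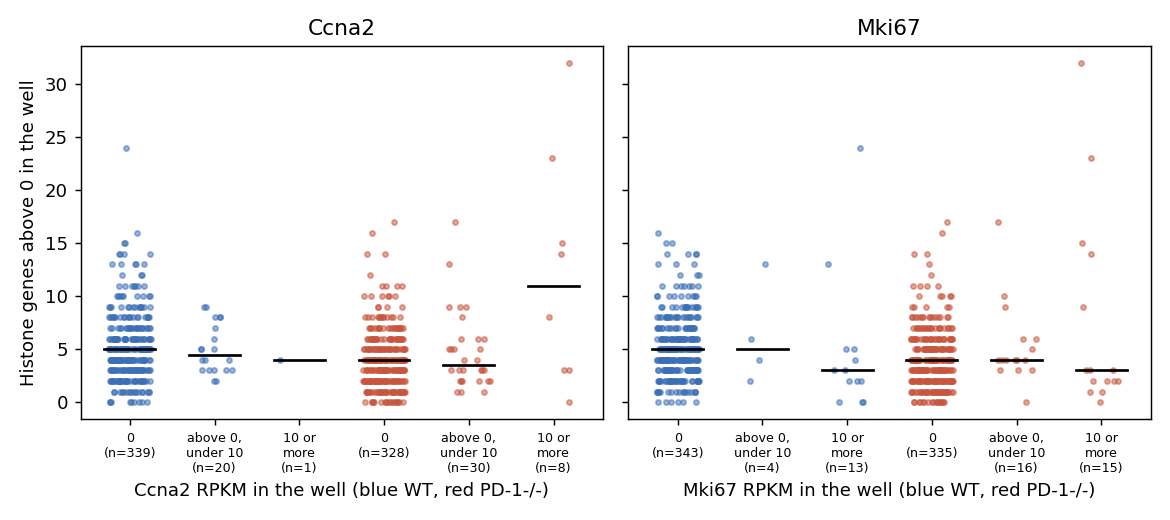
Number of histone genes above 0 in each well (points) by the RPKM of Ccna2 (left) and Mki67 (right) in that well, WT in blue and PD-1-/- in red, with the median of each group as a line. The 8 PD-1-/- wells with Ccna2 at 10 RPKM or more have a median of 11 histone genes, whereas the other groups have medians of 3 to 5.

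With Mki67 at 10 RPKM or more, the median was 3 histone genes in 13 WT wells and 3 in 15 PD-1-/- wells. The mean was 4.85 in these WT wells and 5.20 in wells without Mki67, and 7.47 against 4.10 in PD-1-/-. The mean summed level was 278.1 against 596 RPKM in WT and 696 against 375.5 RPKM in PD-1-/-. PD-1-/- wells with both Ccna2 and Mki67 above 0 numbered 7 and held 1, 9, 14, 15, 17, 23 and 32 histone genes, and the 2 WT wells with both held 2 and 4. L5 had 32 histone genes and 3026 RPKM, with 714.7 RPKM of Ccna2, and 14 of 17 S phase genes and 11 of 13 mitosis genes above 0. K10 had 23 histone genes, 7 of the S phase genes and 11 of the mitosis genes. The WT well with the most histone genes, A18, had 24 of them, all 17 S phase genes and 1 of the mitosis genes, Mki67 at 27.01 RPKM and no Ccna2.

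Other wells held many histone genes with next to none of these. PD-1-/- well H11 had 17 histone genes and 3341 RPKM, and WT well K23 had 16 and 3791 RPKM, the highest sums of their libraries. They had 1441 and 1423 genes above 0, neither had Ccna2 or Mki67, and they held 2 and 0 of the 17 S phase genes and 0 of the 13 mitosis genes. Their leading genes were Hist1h1c in H11 (662 RPKM) and Hist1h1b in K23 (1185 RPKM). H11 is also the PD-1-/- well with 2 reads of Hist1h4m.

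Over all wells, S phase genes and histone genes were hardly correlated in number. The Spearman correlation of the number of the 17 S phase genes above 0 with the number of histone genes was 0.03 in WT and -0.01 in PD-1-/-. Wells with 6 or more S phase genes had a mean of 6.48 histone genes in WT (n = 25) and 6.88 in PD-1-/- (n = 26), against 4.97 and 4.11 in wells with 0 to 2, and they also had more genes above 0 (medians of 2902 and 3024, against 2166 and 2052).

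Few of the genes that make, process and carry histones passed 2-fold between the libraries. The shares over all entries were 4.71% higher and 7.34% lower in PD-1-/-. Of 13 genes of histone gene transcription and mRNA processing, such as Slbp, which binds the histone stem-loop, 1 was higher by 2-fold in PD-1-/- and none lower. This was Cdk2, a kinase that acts on the histone gene activator Npat, with means of 6.18 and 15.7 RPKM and shares of 5.28% and 12.6% of wells. Slbp was at 79.1 and 69.4 RPKM in 51.1% and 47.5% of wells. None of 8 histone chaperone genes, which carry histones to DNA, and none of the 9 replication-independent variants with enough signal passed 2-fold, with median log2 ratios of 0.11 and -0.02. H3f3b, the variant with the highest level, was at 317.6 and 316.2 RPKM. Of 16 S phase genes, 2 were higher in PD-1-/-, Rrm2 and Cdc45, and none lower by 2-fold, with a median of 0.02. Mcm6, a subunit of the replicative helicase, was in fewer wells of PD-1-/-, at 34.2% (29.3 to 39.3) and 22.7% (18.5 to 27.3), with means of 84.04 and 48.4 RPKM. Of 13 mitosis genes, 9 were higher, Ccna2 among them (0.5004 and 6.08 RPKM), and none lower, with a median of 1.06, although most were found in few wells. A few wells weighed heavily in the PD-1-/- mean of Ccna2, with 714.7 RPKM in L5, 611.1 in K10, 308.4 in L3 and 252.9 in M3. The count of 9 was not repeated without these wells.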

How the data were processed

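SMART-SEQ2 libraries of single sorted NK cells were measured in 768 wells, 384 WT and 384 PD-1-/-. The authors deposited 2 tables of RPKM per gene and well, and these RPKM values were used with no further scaling. The submitters' processing notes name TopHat, Cufflinks and the builds mm9 and mm10. Which build the RPKM values rest on, and how reads that match several genes were counted, is not given in the sources used here. Annotation came from GENCODE vM21 and RefSeq by symbol.

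Wells with 1000 to 3500 genes above 0 were kept (360 WT and 366 PD-1-/-), counting genes above 0 in at least 3 wells. Whole reads were recovered from the RPKM steps of 9784 genes. Of values below 60 reads, 99.2% came out whole within a relative tolerance of 0.0003. No count test was run, since each genotype is 1 library. A log2 ratio compares mean RPKM plus 1, and a call past 2-fold needed a mean of 1 RPKM or more in either group. Shares have exact binomial 95% intervals, for counting error only. The scripts were tested on simulated data.

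Members and lists were chosen with earlier results of these data known. Named were the 2 genes of each type with the highest mean, Hist1h4m and any gene past 2-fold with at least 10 RPKM and 20% of wells, and the 5 genes with the largest share difference by Ccna2 in both libraries. Hist1h4n, Hist1h4c, Hist1h4i, Hist1h2bp, Hist1h1d, Hist1h1b, Hist1h2ae, the genes listed by share among wells with Ccna2, Mcm6 and the other genes past 2-fold were named after their values were seen. Python 3.11.15, numpy 2.4.6, pandas 2.3.3, scipy 1.17.1 and matplotlib 3.10.9 were used. The full marker gate of the sort is not reported here.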

Additional observations from a re-analysis of the deposited data

Results flagged for a closer look

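The 42 wells outside the limits of 1000 to 3500 genes were left out of the main comparisons, and 32 of them had at least 1 histone gene above 0. They were 18 of 24 WT wells and 14 of 18 PD-1-/- wells. Hist1h4m was above 0 in 1 of these wells, a WT well, and Hist1h4n in 2 wells of each library.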

How the results depend on the processing

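No paired analysis was possible because each genotype is 1 pooled library, and the well numbers that both plates share only name wells. The log2 ratio of Hist1h4m kept its direction in every alternative and lay at -6.57 after thinning to 100000 recovered reads, -7.10 with a pseudocount of 0.1 and -3.36 with 10. Thinning, which by its construction removes reads, gave Hist1h4m in 16.8% of WT and 0% of PD-1-/- wells, and any histone gene in 91.8% of PD-1-/- wells. In wells with at least 100000 reads, chosen after seeing the data, any histone gene was in 99.1% of WT wells. The number of genes past 2-fold (3 higher, 3 lower) was 1 and 7 in wells with 1500 to 3000 genes, 6 lower in rows A to H, 1 higher in wells with at least 100000 reads, 6 and 6 with a pseudocount of 0.1, 0 and 1 with a pseudocount of 10, and 0 and 1 with a minimum of 10 RPKM. The log2 ratio of the summed level by Ccna2 was -0.48 in PD-1-/- rows A to H (1.38 at 10 RPKM of Ccna2), and in WT -0.76 with Mki67 in place of Ccna2 and -0.73 at 10 RPKM of Ccna2, where 1 well is left. Counts past 2-fold by Ccna2 in WT (2 higher, 15 lower) were 6 higher with all wells of the series, 5 higher with Mki67, 0 and 0 with a pseudocount of 10, and 1 and 3 with a minimum of 10 RPKM. In PD-1-/- (12 higher, 4 lower) they were 5 and 8 without wells L5 and K10, 0 and 0 with a pseudocount of 10, and 4 and 0 with a minimum of 10 RPKM. The cause of these moves was not tested. Of the other values recomputed, 394 stayed within 1.5-fold, the interval of their share or 0.1 of their correlation, and 31 did not. A change of sign was looked for only in the ratio of Hist1h4m. Shallow wells limit what can be seen: 27 WT and 14 PD-1-/- wells had under 100000 recovered reads.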
